A study of Homo sapiens with 9 samples.

Results

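The genes followed here are 47 human DNA repair and checkpoint genes, listed by function. The list was chosen with earlier results of these data known. A gene entered when the platform annotation gave a probe set of the array its symbol alone and that probe set had values. This held for 39 of the 47 genes, with 61 probe sets, out of 9453 genes with values in all. The other 8 were BRIP1 and FANCB, whose probe sets had no values, and BRCA2, FANCA, FANCD2, RBBP8, PMS2 and ATRIP, for which no probe set named for that gene alone was analysed here. RNA came from HT1080, a human fibrosarcoma line known to lack the enzyme methylthioadenosine phosphorylase (MTAP). There were 3 groups of 3 arrays. In the first, MTAP-positive HT1080 cells had been exposed to MT-DADMe-ImmA (10 µM, 48 hours), a drug that blocks MTAP, and are called inhibitor-treated. MTAP-positive and MTAP-negative HT1080 cells were both untreated. The design text calls the arrays biological replicates. The sources used here do not say how MTAP was introduced or whether either line is a single clone.

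Homologous recombination rebuilds a broken chromosome from the sister copy, and BRCA1, BARD1 and PALB2 act in it in S and G2 phase. The Fanconi pathway removes crosslinks between DNA strands by ubiquitinating a pair of clamp proteins, one of which is FANCI. Mismatch repair corrects copying errors, and the checkpoint kinases ATM, ATR, CHEK1 and CHEK2 halt the cycle when DNA is damaged. Many of these genes are transcribed mainly in late G1 and S phase, so their mRNA level in a culture is known to follow its share of dividing cells. MTAP clears methylthioadenosine, which cells release as they make polyamines.

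MTAP mRNA followed the labels, with log2 values of 11.20 ± 0.10 in inhibitor-treated, 11.58 ± 0.19 in MTAP-positive and 4.56 ± 0.41 in MTAP-negative cells (SD, n = 3 each). Of 8 mesenchymal markers 6 had values, and VIM averaged 14.00 in inhibitor-treated, 13.93 in MTAP-positive and 14.02 in MTAP-negative cells. Others on the list had their lowest means in MTAP-negative cells. FN1 averaged 12.38, 12.15 and 10.81, COL6A2 8.95, 8.62 and 7.30, COL6A1 9.97, 10.04 and 9.26, and SPARC 13.05, 13.06 and 12.50 in the same groups, while COL1A1 lay between 6.96 and 7.08 in all 3. The part of this difference in the repair genes' values was not tested. Of 6 epithelial markers the keratins KRT8 and KRT18 had values while CDH1 and EPCAM had none, and no blood, endothelial or liver marker on the list had values. The deposited table kept only probe sets that reached a log2 value of 6.64 on at least 3 arrays. Of the 39 genes, 36 lay at or above it on all 9 arrays, and the exceptions were XRCC3 (8 arrays), XRCC2 (5) and FANCM (3). As a measure of RNA quality, the ACTB control read at its 5' end less at its 3' end was -1.64 ± 0.66 in inhibitor-treated, -1.43 ± 0.45 in MTAP-positive and -2.50 ± 0.90 in MTAP-negative cells (mean log2 difference ± SD over 3 arrays). Exact two-sided permutation tests between groups gave p from 0.2 to 0.7, and with 3 arrays on each side p cannot go below 0.1.

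Most of the 39 genes had their lowest mean in inhibitor-treated cells, and most had their highest in MTAP-negative cells. Checkpoint genes did not follow this as a class, since CHEK2, ATM, RAD1 and RAD9A were lowest in MTAP-negative cells. The mean was lowest in inhibitor-treated cells for 26 of 39 genes (66.7%), against 36.6% of all genes. It was highest in MTAP-negative cells for 27 of 39 (69.2%), against 36.5% of all genes. The inhibitor lowered RAD54B by 1.83-fold, the clamp protein gene FANCI by 1.75-fold and RAD51C by 1.66-fold, and it lowered CHEK1, the main S-phase checkpoint kinase, by 1.51-fold. When the probe sets of a gene were averaged, FANCI, RAD51C and CHEK1 no longer passed the threshold given below. Without inhibitor-treated replicate 3, RAD54B, RAD51C and CHEK1 did not pass it. Of untreated cells, the largest change was RAD50, 1.87-fold lower in MTAP-positive cells, while CHEK2 was 1.37-fold higher.

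**Figure D1:**
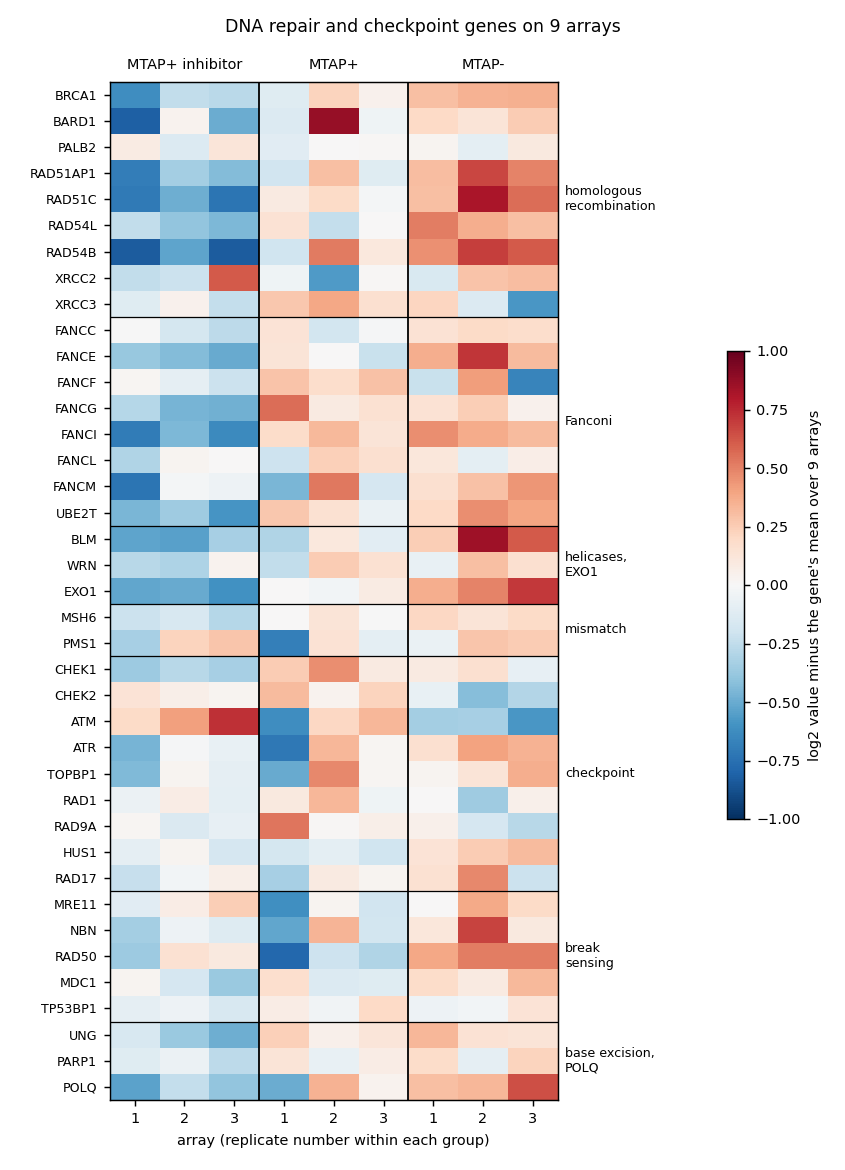
Heat map of the 39 genes (rows, ordered by function) on 9 arrays (columns: inhibitor-treated, MTAP-positive, MTAP-negative). Colour is the log2 value minus the gene's mean over the 9 arrays; most recombination and Fanconi genes are blue on the inhibitor-treated arrays and red on the MTAP-negative ones, while ATM runs the other way.

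Each difference below is a log2 change ± SE from limma, with the 9 arrays in 1 fit and p-values adjusted over all 9453 genes by the Benjamini-Hochberg method; a gene passed when the adjusted p lay below 0.05. With the inhibitor, 8 of 39 genes were lower than in untreated MTAP-positive cells and 0 were higher, against 7.49% lower and 5.95% higher among all genes (13.4% in either direction). At an unadjusted limma p below 0.05 the counts were 15 lower and 1 higher, against 1487 lower and 1243 higher of 9452 genes. The median change of the 39 genes was -0.24, against -0.02 over all genes. All inhibitor-treated arrays lay below all MTAP-positive arrays for 17 of the 39 genes and above them for 0, against 19.1% below and 15.6% above over all genes (34.8% in either direction). With the replicate number as a block, 14 genes passed, 13 lower and 1 higher, the 8 among them. The count over all genes also rose with the block, as given further below. The labels do not say what same-numbered arrays share, and the block was chosen from these same values. Without inhibitor-treated replicate 3, only FANCI passed, and 370 of all genes instead of 1270. The other 7 then had changes from -0.82 to -0.40 with adjusted p from 0.0514 to 0.114.

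MTAP-positive cells had 8 of the 39 genes lower and 1 higher than MTAP-negative cells, against 6.85% lower and 11.7% higher among all genes (18.5% in either direction). The median change was -0.21, against 0.02 over all genes. All MTAP-positive arrays lay below all MTAP-negative arrays for 10 genes and above them for 1, against 15.2% and 19.6% of all genes (34.8% in either direction). Centring each array on its median left these 9 calls as they were, while over all genes it turned 1103 higher and 647 lower into 828 higher and 992 lower. With the replicate block 16 genes passed, 13 lower and 3 higher, the 9 among them. The count over all genes with the block is not given here for this comparison. The rise is therefore not read as particular to these genes. Without the block, the count of repair genes was 3 without MTAP-negative replicate 2 or replicate 3. It was 5 without MTAP-positive replicate 1 and 2 without MTAP-positive replicate 3. With the ACTB difference as a covariate RAD50 alone passed (adjusted p = 0.0393). RAD50 and EXO1 passed whichever single array was left out.

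Inhibitor-treated cells differed from MTAP-negative cells in 20 of the 39 genes, 18 lower and 2 higher, against 16.2% lower and 18.8% higher among all genes (35.0% in either direction). The median change was -0.38, against 0.00 over all genes, and the arrays lay apart for 25 genes, 23 below and 2 above, against 25.8% and 26.9% of all genes (52.7% in either direction). The calls of ATM, CHEK1, CHEK2, FANCC, HUS1 and RAD50 did not hold for every single array left out, and with the ACTB covariate 16 genes passed, without CHEK2, FANCC, HUS1 and RAD50. This comparison shares its arrays with the other 2 and is their sum, so it is no separate evidence. Fewer cells in S phase and less of each mRNA per cell cannot be told apart in these bulk samples.

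**Figure D2:**
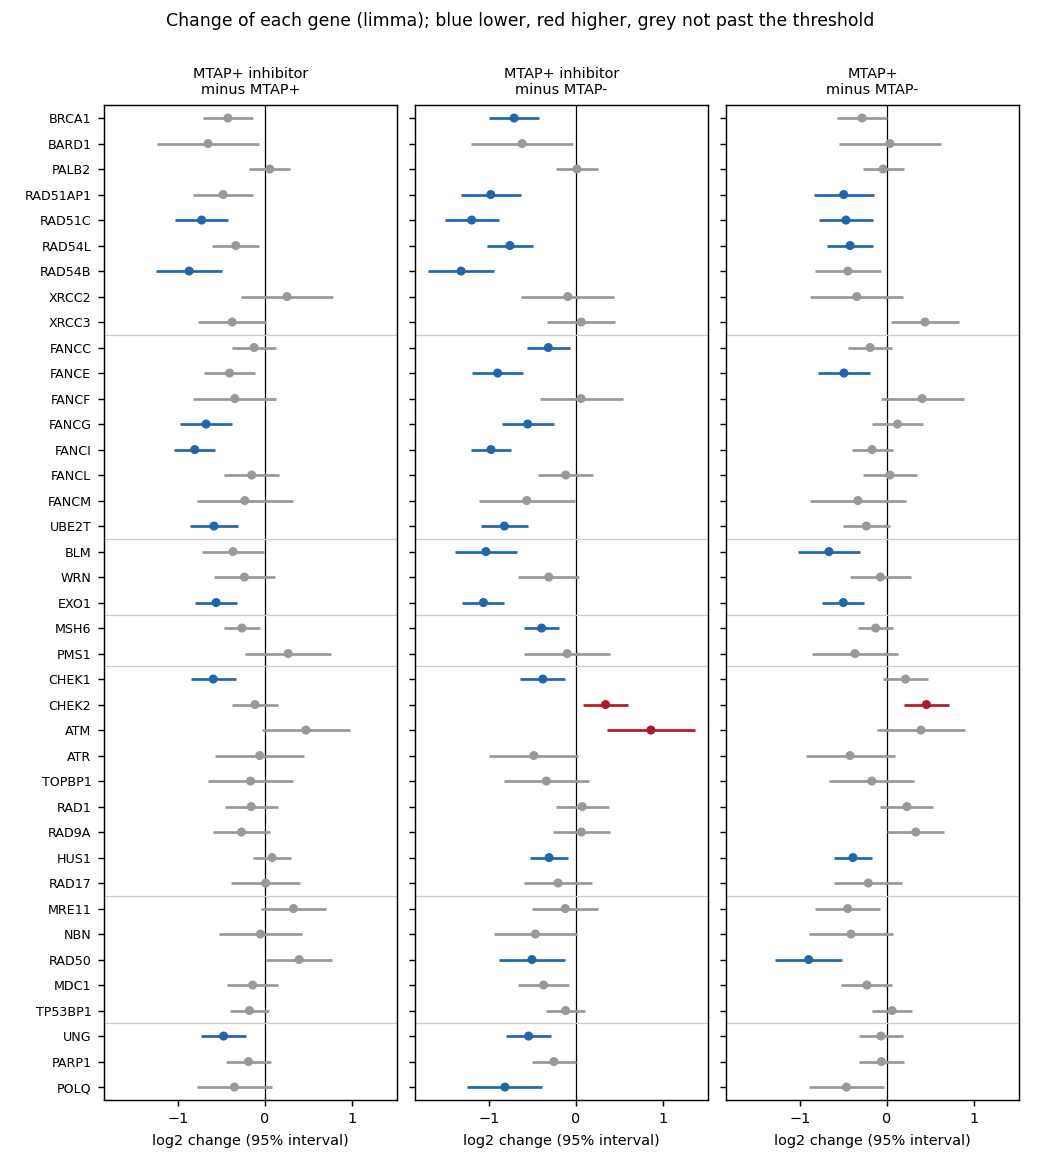
Log2 change with its 95% interval for each of the 39 genes (rows, ordered by function) in 3 comparisons (panels). Blue genes were lower and red genes higher past the threshold, and grey genes did not pass; blue points outnumber red in every panel.

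To show the control regions of genes that fell together, the 250 bases before a RefSeq start (GRCh38.p14, the first start in the table for each gene) are given for the inhibitor-lowered genes of largest change that had a window to print. Capitals mark matches, on either strand, to the E2F-type words TTGGCGC or TTCCCGC or TTGCCGC or TTCGCGC, to the CHR word TTTGAA of cell-cycle genes, or to CCAAT. The CHEK1 stretch lies downstream of that gene's outermost start, and the table holds several starts for CHEK1. The stretches lie at chr17:58692323-58692572, plus strand, for RAD51C; chr9:35079943-35080192, minus strand, for FANCG; chr11:125625979-125626228, plus strand, for CHEK1; and chr1:202341937-202342186, minus strand, for UBE2T.
RAD51C: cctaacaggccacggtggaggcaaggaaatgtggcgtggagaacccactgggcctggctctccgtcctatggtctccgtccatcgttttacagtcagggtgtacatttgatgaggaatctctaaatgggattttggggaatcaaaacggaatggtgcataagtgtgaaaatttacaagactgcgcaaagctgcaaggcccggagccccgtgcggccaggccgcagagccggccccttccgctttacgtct
FANCG: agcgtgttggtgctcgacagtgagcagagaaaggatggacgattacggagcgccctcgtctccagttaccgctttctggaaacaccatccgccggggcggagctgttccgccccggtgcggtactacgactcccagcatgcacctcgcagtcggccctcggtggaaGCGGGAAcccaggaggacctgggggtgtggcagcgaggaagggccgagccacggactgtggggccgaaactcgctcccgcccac
CHEK1: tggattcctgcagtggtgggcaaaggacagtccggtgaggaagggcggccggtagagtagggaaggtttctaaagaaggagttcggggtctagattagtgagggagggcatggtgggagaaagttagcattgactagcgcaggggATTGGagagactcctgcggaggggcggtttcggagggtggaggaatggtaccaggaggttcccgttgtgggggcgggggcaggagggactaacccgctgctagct
UBE2T: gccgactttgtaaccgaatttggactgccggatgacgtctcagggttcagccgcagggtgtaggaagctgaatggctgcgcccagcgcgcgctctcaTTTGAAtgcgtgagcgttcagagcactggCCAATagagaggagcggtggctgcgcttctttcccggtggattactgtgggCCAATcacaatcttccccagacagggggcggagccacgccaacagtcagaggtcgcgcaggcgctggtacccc
FANCG had an E2F-type word that begins 84 bases before the start, CHEK1 a CCAAT word, and UBE2T a pair of CCAAT words and the CHR word. None of these words lay in the RAD51C stretch.

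Promoter windows of 300 bases, from 250 before to 50 after that start, were matched for 34 of the 39 genes. An E2F-type word lay in 21 of the 34 (61.8%), against 13.1% of 27305 genes with a window. The 27305 were not limited to genes with values on the array, so they and the 34 may differ in more than function. CCAAT lay in 18 (52.9%, against 35.7%) and the CHR word in 5 (14.7%, against 15.4%). The E2F-type word was present in 3 of 6 genes lowered by the inhibitor, in 5 of 7 lower in MTAP-positive than in MTAP-negative cells, and in 11 of 19 genes that were lower in no comparison. These are matches of letters and not measured binding sites.

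Of the 39 genes RAD54B had the largest fall with the inhibitor, and it encodes a DNA translocase that acts in strand invasion. Its log2 values were 6.97, 7.28 and 6.97 in inhibitor-treated, 7.61, 8.32 and 7.91 in MTAP-positive, and 8.26, 8.50 and 8.42 in MTAP-negative cells. All inhibitor-treated arrays lay below the other 6, and MTAP-positive replicate 2 reached into the MTAP-negative range. The change was -0.87 ± 0.17 with the inhibitor (adjusted p = 0.00971) and -1.32 ± 0.17 for inhibitor-treated against MTAP-negative cells (adjusted p = 0.000304). Between MTAP-positive and MTAP-negative cells RAD54B differed by -0.45 ± 0.17 (adjusted p = 0.0924, or 0.0203 with the replicate block).

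RAD51C, a homologous recombination protein, read 8.29, 8.51 and 8.26 in inhibitor-treated cells, 9.08, 9.19 and 8.97 in MTAP-positive cells, and 9.29, 9.81 and 9.55 in MTAP-negative cells. The 3 groups did not overlap. RAD51C fell by 0.73 with the inhibitor (SE 0.14, adjusted p = 0.00885), and MTAP-positive differed from MTAP-negative cells by -0.47 ± 0.14 (adjusted p = 0.0405). The second of these RAD51C calls was lost in 9 of 20 alternatives, the ACTB covariate among them. Its other probe set was lower in MTAP-positive than in MTAP-negative cells at -0.64 ± 0.11, but differed by 0.02 ± 0.11 with the inhibitor. Averaged over both, RAD51C did not pass with the inhibitor (-0.35, adjusted p = 0.0663).

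RAD51AP1, which stimulates strand exchange, had log2 values of 7.87, 8.23 and 8.13 in inhibitor-treated, 8.37, 8.86 and 8.44 in MTAP-positive, and 8.87, 9.23 and 9.06 in MTAP-negative cells. The groups lay apart, with MTAP-positive cells in the middle. Its change was -0.50 ± 0.16 for MTAP-positive against MTAP-negative cells (adjusted p = 0.0493), a call lost in 12 of 21 alternatives. With the inhibitor it differed by -0.48 ± 0.16 (adjusted p = 0.0667, or 0.00985 with the replicate block). RAD54L, the translocase related to RAD54B, read 7.65, 7.50 and 7.45 in inhibitor-treated, 8.04, 7.66 and 7.90 in MTAP-positive, and 8.41, 8.26 and 8.20 in MTAP-negative cells. MTAP-positive cells were lower than MTAP-negative cells by 0.42 on the log2 scale (-0.42 ± 0.12, adjusted p = 0.0363). That call was lost in 9 of 20 alternatives, the ACTB covariate among them. With the inhibitor RAD54L differed by -0.34 ± 0.12 (adjusted p = 0.0943, or 0.0403 with the replicate block).

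BRCA1, the ubiquitin ligase that directs breaks into recombination, read 7.78, 8.16 and 8.14 in inhibitor-treated, 8.29, 8.63 and 8.45 in MTAP-positive, and 8.70, 8.75 and 8.76 in MTAP-negative cells. It passed for inhibitor-treated against MTAP-negative cells (-0.71 ± 0.13, adjusted p = 0.00200). The inhibitor's change of -0.43 ± 0.13 lay just outside the threshold (adjusted p = 0.0525, or 0.0196 with the replicate block). The dimmer BRCA1 probe set gave -0.40 ± 0.21 for inhibitor-treated against MTAP-negative cells (adjusted p over all probe sets = 0.165) and -0.44 ± 0.21 with the inhibitor. For MTAP-positive against MTAP-negative cells it gave 0.04 ± 0.21, where the brighter one gave -0.28 ± 0.13. BARD1, the partner of BRCA1, read 7.81, 8.66 and 8.13 in inhibitor-treated, 8.48, 9.50 and 8.58 in MTAP-positive, and 8.82, 8.75 and 8.88 in MTAP-negative cells. MTAP-positive BARD1 values overlapped both other groups, while all inhibitor-treated arrays lay below all MTAP-negative ones. BARD1 differed by -0.65 ± 0.27 with the inhibitor (adjusted p = 0.132, or 0.0445 with the block). PALB2, which bridges BRCA1 to the rest of the machinery, differed by 0.06 with the inhibitor, with a 95% interval from -0.18 to 0.29. XRCC3 and XRCC2, which also act in homologous recombination, gave -0.38 ± 0.18 and 0.25 ± 0.24 with the inhibitor and passed in no comparison. With the block XRCC3 was higher in MTAP-positive than in MTAP-negative cells (0.44, adjusted p = 0.0460). In all, 2 of 9 recombination genes fell with the inhibitor, 3 were lower in MTAP-positive than in MTAP-negative cells and 5 were lower in inhibitor-treated than in MTAP-negative cells, against 7.49%, 6.85% and 16.2% of all genes.

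**Figure D3:**
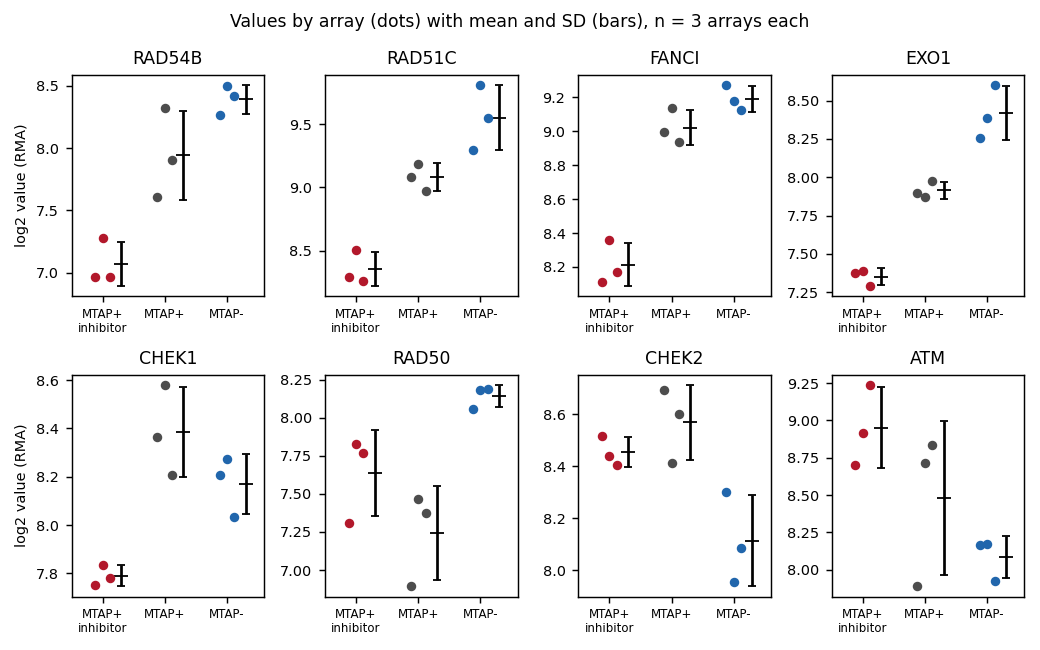
Log2 values of 8 genes on each array (dots) with the mean and SD (bars; n = 3 arrays a group). RAD54B, RAD51C, FANCI, EXO1 and CHEK1 are lowest in inhibitor-treated cells, RAD50 is lowest in MTAP-positive cells, and CHEK2 and ATM are lowest in MTAP-negative cells.

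Of 8 Fanconi genes, 3 fell with the inhibitor (37.5%), against 7.49% of all genes. All 8 changes were negative, with a median of -0.38, and 4969 of 9452 genes had a negative change. FANCI read 8.11, 8.36 and 8.17 in inhibitor-treated cells, against 8.99, 9.14 and 8.94 in MTAP-positive cells. In MTAP-negative cells it read 9.28, 9.18 and 9.12, so the untreated groups overlapped while the inhibitor-treated arrays stood apart. Its change was -0.81 ± 0.11 with the inhibitor (adjusted p = 0.00180) and -0.17 ± 0.11 for MTAP-positive against MTAP-negative cells (adjusted p = 0.291). FANCI did not pass with the inhibitor when its probe sets were averaged (-0.29, adjusted p = 0.0613).

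UBE2T, the conjugating enzyme that supplies ubiquitin to the clamp, read 8.99, 9.09 and 8.86 in inhibitor-treated, 9.72, 9.60 and 9.38 in MTAP-positive, and 9.65, 9.92 and 9.84 in MTAP-negative cells. The change with the inhibitor was -0.59 ± 0.12 (adjusted p = 0.0131). FANCG, a scaffold of the core complex, read 8.89, 8.71 and 8.69 in inhibitor-treated, 9.73, 9.27 and 9.32 in MTAP-positive, and 9.32, 9.42 and 9.22 in MTAP-negative cells. It differed by -0.68 ± 0.13 with the inhibitor (adjusted p = 0.0102) and by 0.12 ± 0.13 for the untreated groups (adjusted p = 0.558). For both genes the inhibitor-treated arrays lay below the other 6 and the untreated groups overlapped.

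FANCE, which joins the core complex to its substrate, read 7.26, 7.20 and 7.13 in inhibitor-treated, 7.76, 7.64 and 7.41 in MTAP-positive, and 7.99, 8.35 and 7.94 in MTAP-negative cells, with no overlap. It was lower in MTAP-positive than in MTAP-negative cells (-0.49 ± 0.13, adjusted p = 0.0290) and differed by -0.41 ± 0.13 with the inhibitor (adjusted p = 0.0702, or 0.0356 with the replicate block). The FANCE call between the untreated groups was lost in 4 of 19 alternatives, the ACTB covariate among them. FANCL, the ubiquitin ligase subunit, read 8.41, 8.73 and 8.71 in inhibitor-treated, 8.50, 8.94 and 8.87 in MTAP-positive, and 8.82, 8.61 and 8.77 in MTAP-negative cells, with overlap. It gave -0.15 with the inhibitor (95% interval -0.47 to 0.16) and passed in no comparison. FANCC passed for inhibitor-treated against MTAP-negative cells at -0.32 ± 0.11 (adjusted p = 0.0497), and FANCF and FANCM passed in none.

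EXO1 and BLM act where broken ends are resected and joined strands are unwound. EXO1, a nuclease of resection and mismatch repair, read 7.38, 7.39 and 7.29 in inhibitor-treated, 7.90, 7.87 and 7.98 in MTAP-positive, and 8.26, 8.39 and 8.60 in MTAP-negative cells. The 3 groups lay apart by more than their spread. EXO1 changed by -0.56 ± 0.11 with the inhibitor (adjusted p = 0.00933) and by -0.50 ± 0.11 for MTAP-positive against MTAP-negative cells (adjusted p = 0.0110). With the ACTB covariate the second of these was -0.39 (adjusted p = 0.123). BLM, a helicase that dissolves recombination intermediates, read 7.12, 7.11 and 7.32 in inhibitor-treated, 7.36, 7.76 and 7.55 in MTAP-positive, and 7.90, 8.50 and 8.27 in MTAP-negative cells. It was lower in MTAP-positive than in MTAP-negative cells (-0.67 ± 0.16, adjusted p = 0.0179) and differed by -0.37 ± 0.16 with the inhibitor (adjusted p = 0.158). The BLM call between the untreated groups was lost in 5 of 19 alternatives, the ACTB covariate among them. WRN, a related helicase, read 7.49, 7.46 and 7.80 in inhibitor-treated, 7.52, 8.02 and 7.92 in MTAP-positive, and 7.69, 8.07 and 7.92 in MTAP-negative cells, with overlap. It gave -0.24 with the inhibitor (95% interval -0.59 to 0.11) and -0.08 between the untreated groups (MTAP-positive minus MTAP-negative), and it passed in no comparison.

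Mismatch repair had 2 genes with values. MSH6, a subunit of the mismatch sensor, averaged 10.65 ± 0.06 in inhibitor-treated, 10.91 ± 0.08 in MTAP-positive and 11.04 ± 0.04 in MTAP-negative cells (SD, n = 3). It was lower in inhibitor-treated than in MTAP-negative cells (-0.39 ± 0.09, adjusted p = 0.00809), and with the inhibitor it differed by -0.27 ± 0.09 (adjusted p = 0.0856). The call did not hold when its probe sets were averaged (-0.16, adjusted p = 0.362). PMS1, a mismatch repair ATPase, read 8.84, 9.39 and 9.44 in inhibitor-treated, 8.48, 9.32 and 9.07 in MTAP-positive, and 9.10, 9.45 and 9.43 in MTAP-negative cells. The groups overlapped. PMS1 differed by 0.27 with the inhibitor (95% interval -0.22 to 0.76) and passed in no comparison, except with the replicate block for MTAP-positive against MTAP-negative cells (-0.37, adjusted p = 0.0390).

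Checkpoint genes moved in both directions. CHEK1 fell with the inhibitor: it read 7.75, 7.84 and 7.78 in inhibitor-treated cells, against 8.37, 8.58 and 8.21 in MTAP-positive cells. In MTAP-negative cells it read 8.21, 8.27 and 8.03, within reach of the MTAP-positive arrays. The change with the inhibitor was -0.60 ± 0.12 (adjusted p = 0.0100), and the difference of MTAP-positive from MTAP-negative cells was 0.21 ± 0.12 (adjusted p = 0.228). Averaged over its 3 probe sets, CHEK1 did not pass (-0.36, adjusted p = 0.11). CHEK2, the kinase that ATM activates, was the 1 gene of the 39 that was higher in MTAP-positive than in MTAP-negative cells. It read 8.52, 8.44 and 8.40 in inhibitor-treated, 8.70, 8.41 and 8.60 in MTAP-positive, and 8.30, 7.95 and 8.09 in MTAP-negative cells. MTAP-negative arrays lay below all others, with a change of 0.46 ± 0.12 for MTAP-positive against MTAP-negative cells (adjusted p = 0.0250) and -0.12 ± 0.12 with the inhibitor (adjusted p = 0.567). The CHEK2 call between the untreated groups was lost in 6 of 19 alternatives, the ACTB covariate among them.

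ATM, the kinase that answers double-strand breaks, read 8.70, 8.91 and 9.24 in inhibitor-treated, 7.89, 8.71 and 8.84 in MTAP-positive, and 8.17, 8.17 and 7.93 in MTAP-negative cells. It was 1.82-fold higher in inhibitor-treated than in MTAP-negative cells (0.86 ± 0.23, adjusted p = 0.0146). Without inhibitor-treated replicate 3 the adjusted p was 0.0638. MTAP-positive arrays spanned the gap between the other groups, and neither 0.47 ± 0.23 with the inhibitor (adjusted p = 0.202) nor 0.39 ± 0.23 for MTAP-positive against MTAP-negative cells (adjusted p = 0.256) passed. HUS1, a subunit of the checkpoint clamp, was lower in MTAP-positive than in MTAP-negative cells (-0.39 ± 0.10, adjusted p = 0.0224) and gave 0.08 ± 0.10 with the inhibitor (adjusted p = 0.633). The HUS1 call between the untreated groups was lost in 6 of 19 alternatives, the ACTB covariate among them. The clamp partners RAD9A and RAD1 and the clamp loader RAD17 passed in no comparison, though RAD9A was higher in MTAP-positive than in MTAP-negative cells with the replicate block (0.33, adjusted p = 0.0462). ATR, the kinase of stalled forks, and its activator TOPBP1 passed in none, with changes of -0.06 (95% interval -0.57 to 0.45) and -0.17 (-0.66 to 0.32) with the inhibitor. TOPBP1 read 9.02, 9.49 and 9.37 in inhibitor-treated, 8.96, 9.94 and 9.48 in MTAP-positive, and 9.49, 9.59 and 9.82 in MTAP-negative cells, with overlap. Of 9 checkpoint genes 1 fell (11.1%) and 0 rose with the inhibitor, near the 7.49% and 5.95% of all genes.

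Among the genes that sense and process broken ends, with the inhibitor limma called 0 of 5 (1, RAD50, at an unadjusted p below 0.05, higher) and the median change was -0.05. Among all genes 7.49% were lower and 5.95% higher, and 1243 of 9452 were higher at an unadjusted p below 0.05. The median over all genes was -0.02. With 5 genes, 0 calls lie near these shares. RAD50, the ATPase that bridges broken ends together with MRE11 and NBN, read 7.31, 7.83 and 7.77 in inhibitor-treated, 6.89, 7.47 and 7.37 in MTAP-positive, and 8.06, 8.18 and 8.19 in MTAP-negative cells. All MTAP-negative arrays lay above the rest. The change was -0.90 ± 0.17 for MTAP-positive against MTAP-negative cells (adjusted p = 0.00606) and -0.51 ± 0.17 for inhibitor-treated against MTAP-negative cells (adjusted p = 0.0430). With the inhibitor it was 0.39 ± 0.17 (adjusted p = 0.163, or 0.0353 and higher with the replicate block). MRE11, the nuclease of that complex, gave -0.45 ± 0.17 for MTAP-positive against MTAP-negative cells (adjusted p = 0.0893, or 0.0196 with the block). NBN, its adaptor, read 9.86, 10.15 and 10.07 in inhibitor-treated, 9.68, 10.54 and 10.02 in MTAP-positive, and 10.31, 10.87 and 10.30 in MTAP-negative cells. MTAP-positive NBN values overlapped both other groups, while all inhibitor-treated arrays lay below all MTAP-negative ones. For MTAP-positive against MTAP-negative cells NBN gave -0.41 ± 0.22 (adjusted p = 0.208, or 0.0416 with the block). The break mediators MDC1 and TP53BP1 differed by -0.23 ± 0.13 and 0.06 ± 0.10 in the same comparison and did not pass.

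UNG, the glycosylase that removes uracil from DNA, read 9.16, 8.95 and 8.83 in inhibitor-treated, 9.56, 9.37 and 9.44 in MTAP-positive, and 9.66, 9.47 and 9.45 in MTAP-negative cells. It fell with the inhibitor (-0.48 ± 0.12, adjusted p = 0.0241), but not without MTAP-positive replicate 1 or inhibitor-treated replicate 2, while the untreated groups overlapped and differed by -0.07 ± 0.12 (adjusted p = 0.722). POLQ, the polymerase of microhomology end joining, was lower in inhibitor-treated than in MTAP-negative cells (-0.82 ± 0.19, adjusted p = 0.00864). It gave -0.35 ± 0.19 with the inhibitor (adjusted p = 0.262) and -0.46 ± 0.19 for MTAP-positive against MTAP-negative cells (adjusted p = 0.120, or 0.0491 with the block). PARP1, which marks strand breaks with poly(ADP-ribose), read 9.48, 9.54 and 9.34 in inhibitor-treated, 9.73, 9.53 and 9.68 in MTAP-positive, and 9.79, 9.51 and 9.82 in MTAP-negative cells, with overlap. It gave -0.19 with the inhibitor (95% interval -0.45 to 0.07) and passed in no comparison.

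Several genes were read by more than 1 probe set, and these did not always move together. FANCI had 3. The one of highest mean and a further one fell with the inhibitor, by -0.81 ± 0.11 and -0.43 ± 0.11, while the dimmest rose, at 7.21, 7.24 and 7.36 in inhibitor-treated against 6.94, 6.91 and 6.81 in MTAP-positive cells. With all probe sets tested singly its change was 0.38 ± 0.10 (adjusted p = 0.0388). Between the untreated groups (MTAP-positive minus MTAP-negative) all 3 FANCI probe sets were negative, at -0.17 ± 0.11, -0.24 ± 0.11 and -0.50 ± 0.10, and the dimmest passed (adjusted p over all probe sets = 0.00993). For MSH6 the dimmer probe set gave 0.56 ± 0.18 for MTAP-positive against MTAP-negative cells (adjusted p = 0.0668), while the brighter one gave -0.13 ± 0.09. The other CHEK1 probe sets gave -0.35 ± 0.16 and -0.14 ± 0.19 with the inhibitor, both negative like the first. The 4 NBN probe sets ranged from -0.75 to -0.07 for MTAP-positive against MTAP-negative cells.

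**Figure D4:**
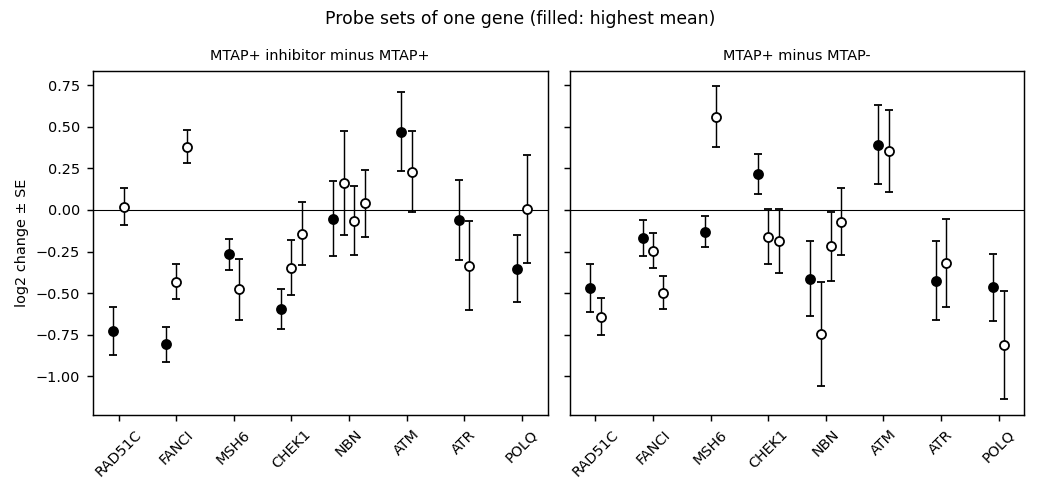
Log2 change ± SE of every probe set of 8 genes with the inhibitor (left) and for MTAP-positive against MTAP-negative cells (right); filled points are the probe set of highest mean. FANCI and RAD51C probe sets part with the inhibitor, and MSH6 probe sets part between MTAP-positive and MTAP-negative cells.

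Other repair genes were read from 7 further lists, to be set against the 7.49% of all genes lower and 5.95% higher with the inhibitor. With 0 to 2 lower calls a list, most of the shares were near these. Of 17 base excision genes 2 were lower, the glycosylase NEIL3 (-0.96 ± 0.13, adjusted p = 0.00180) and the flap nuclease FEN1 (-0.84 ± 0.13, adjusted p = 0.00408), and 0 were higher. Of 13 fork protection genes TIMELESS alone passed, lower (-0.50 ± 0.11). Yet 12 of the 13 changes were negative (median -0.18), against 4969 of 9452 genes. For 6 of the 13 all inhibitor-treated arrays lay below all MTAP-positive arrays, and for 0 above them, against 19.1% and 15.6% of all genes. In inhibitor-treated against MTAP-negative cells 46.2% of the 13 were lower and 0 higher, against 16.2% and 18.8% of all genes. With the inhibitor, of 11 junction resolution genes RMI1 was lower (-0.63 ± 0.16), and of 12 translesion genes UBE2A (-0.57 ± 0.10). Of 11 break ubiquitin signalling genes PAXIP1 was lower (-0.36 ± 0.11). Of 7 end joining genes limma called 0. At an unadjusted limma p below 0.05, 2 of the 7 were lower, against 1487 of 9452 genes. XRCC6, a subunit of the Ku ring, gave -0.22 ± 0.16 (adjusted p = 0.388). Of 19 nucleotide excision genes 1 passed, ERCC6, which was higher (0.45 ± 0.11).

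In MTAP-positive against MTAP-negative cells, where 6.85% of all genes were lower and 11.7% higher, of 11 junction resolution genes the nuclease DNA2 was lower (-0.68 ± 0.11, adjusted p = 0.00236) and the nuclease subunit MUS81 higher (0.54 ± 0.14). Of 13 fork protection genes TIPIN (-0.69 ± 0.13) and ATAD5 (-0.40 ± 0.12) were lower. Of 11 break ubiquitin signalling genes BRCC3 (-0.54 ± 0.13) and SHLD2 (-0.42 ± 0.13) were lower, and of 12 translesion genes RAD18 (-0.60 ± 0.17). Base excision had TDG (-0.43 ± 0.12) and PARP2 (-0.35 ± 0.09) lower and MPG (0.53 ± 0.11) higher. Nucleotide excision had 3 of 19 lower, CETN2 the largest (-0.46 ± 0.11), and 1 higher, RAD23B (0.34 ± 0.10). End joining again had 0 of 7 by limma, with 1 lower at an unadjusted p below 0.05, against 1307 of 9452 genes.

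Proliferation genes, taken as a measure of dividing cells, moved beside the repair genes with the inhibitor. Of 22, 10 were lower and 0 higher than in untreated MTAP-positive cells, with a median change of -0.60, against 7.49% lower and 5.95% higher over all genes. They were led by CCNE2, a cyclin of S-phase entry (-1.39 ± 0.21), the ribonucleotide reductase subunit RRM2 (-1.02 ± 0.17) and the origin loader CDC6 (-0.997 ± 0.172). Between MTAP-positive and MTAP-negative cells 1 of the 22, CCNE2, was lower (-0.70 ± 0.21, adjusted p = 0.0427), the median change being -0.11. That is 4.55%, against 6.85% of all genes. At an unadjusted limma p below 0.05, 4 of the 22 were lower and 0 higher, against 1307 and 1914 of 9452 genes. For 6 of the 22 all MTAP-positive arrays lay below all MTAP-negative arrays, and for 0 above them, against 15.2% and 19.6% of all genes. The part of proliferation in the repair genes' changes was not tested.

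**Figure D5:**
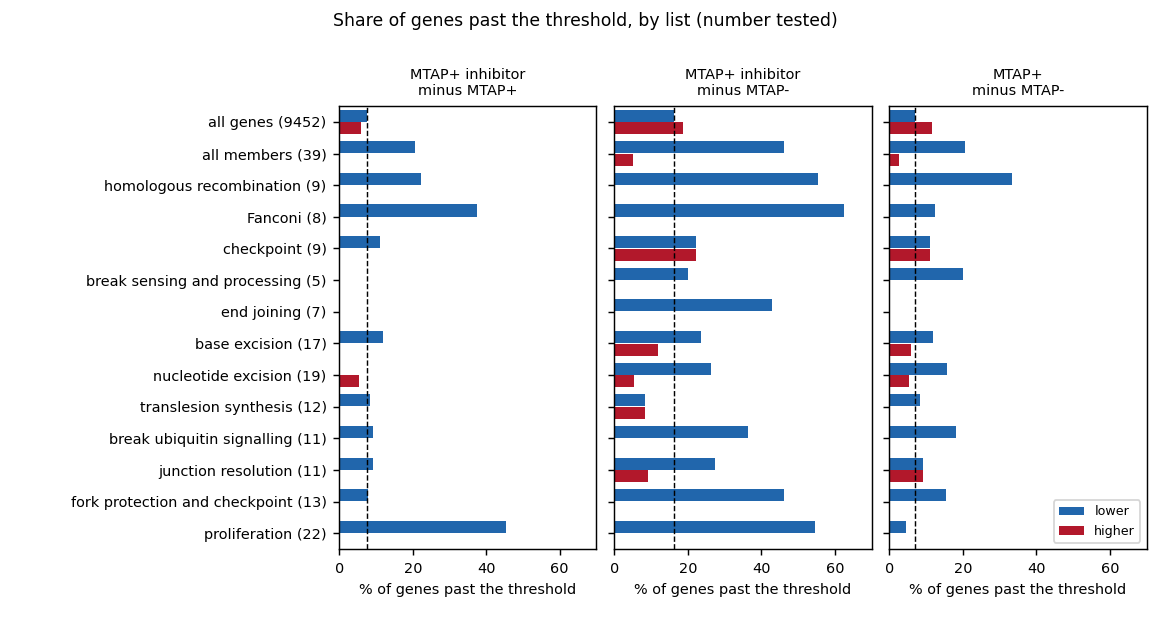
Share of the genes of each list (rows, number tested in brackets) that were lower (blue) or higher (red) past the threshold in 3 comparisons (panels); the dashed line is the share of all genes that were lower. Proliferation genes reach 45.5% lower with the inhibitor and 4.55% between MTAP-positive and MTAP-negative cells. Recombination genes reach 33.3% in the latter, which is 3 of 9, and none of the 3 passed with the ACTB covariate.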

How the data were processed

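Expression was measured on 9 Affymetrix arrays of 3 groups. The deposited log2 values were made with RMA, as the submitters' processing notes name it; no version or settings could be read from the sources. Of 54675 probe sets listed, 17474 had values. RMA normalises arrays by quantiles, so a change is relative to the whole array, and array medians still ran from 8.24 to 8.38. Of 15491 probe sets with 1 symbol in the platform annotation, 15485 were kept after controls were left out. Symbols were checked by Entrez number, and 0 changed. Each gene was read from its probe set of highest mean, and no second filter on low values was set, since the table was already filtered.

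Each comparison used limma 3.58.1 (R 4.3.3, lmFit and eBayes on all 9 arrays) with Benjamini-Hochberg adjustment over 9453 genes; MTAP was left out of counts. The fitting code was tested on simulated data. P-values measure only the spread between 3 arrays a group, which limits precision. Same-numbered arrays deviated together in all 3 pairs of inhibitor-treated with MTAP-positive (correlations 0.302 to 0.722) and of MTAP-positive with MTAP-negative cells (0.129 to 0.346). Of the 3 pairs of inhibitor-treated with MTAP-negative cells (0.0229 to 0.286), 1 lay above 0.107, the highest correlation among differently numbered arrays. Blocked values are therefore given for the first 2 comparisons, but only for genes that passed with the block and not without it. These were 6 genes with the inhibitor and 7 for MTAP-positive against MTAP-negative cells. Genes that passed in neither fit have no blocked value printed. This choice rests on these same values, since the labels do not say what the replicate numbers share. The genes, lists and tests were chosen with earlier results of these data known. Shown in full were, per comparison, the 8 genes of largest change that passed with groups apart, and per class the brightest gene that passed in none. From the other lists, up to 3 passing genes of largest change could be named. BRCA1, MSH6, POLQ, HUS1 and further members outside this rule were described after their values were seen. Promoter sequences came from RefSeq (GRCh38.p14).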

Additional observations from a re-analysis of the deposited data

How the results depend on the processing

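Of the repair genes 9 passed in MTAP-positive against MTAP-negative cells. The replicate block gave 16, a fit of these 2 groups alone 3, the filter at the 60th percentile of values 2, dropping probe sets shared by several transcripts 4 and the ACTB covariate 1. Leaving out 1 array gave 2 to 12. Over all genes the count of 1750 became 1004 with only the 2 groups, 977 with the 60th percentile filter and 662 with the ACTB covariate, and leaving out 1 array gave 1014 to 2063. With the inhibitor 8 genes passed. They became 14 with the replicate block, 5 with the 60th percentile filter, the mean of the probe sets or without probe sets shared by several transcripts, and 13 with array weights. Leaving out 1 array gave 1 to 9. Over all genes 1270 became 1919 with the replicate block, 785 with the 60th percentile filter and 2057 with array weights, and leaving out 1 array gave 370 to 1254. For inhibitor-treated against MTAP-negative cells 20 genes passed, 9 with the 60th percentile filter and 13 without probe sets shared by several transcripts, and leaving out 1 array gave 14 to 23. Over all genes 3306 became 1929 with the 60th percentile filter, and leaving out 1 array gave 2321 to 3726. The replicate numbers do not pair these 2 groups by the check used, and the block gave 25 repair genes. Its count over all genes is not given here, so this rise is not read as particular to them. The block kept every call named here and added others. The percentile filters and dropping shared probe sets test fewer genes, and otherwise the cause was not tested. The other settings kept every count of repair genes within 1.5 times, namely the 40th percentile filter, all probe sets tested singly, centring, renewed quantile normalisation and an intensity trend. No passing gene changed sign under these settings, where each gene's brightest probe set or mean was read. Single dimmer probe sets had the opposite sign with the inhibitor for FANCI (0.38) and RAD51C (0.02), and for MSH6 in inhibitor-treated against MTAP-negative cells (0.08). The limit on precision is 3 arrays a group, and dim genes such as XRCC2 and FANCM are the least certain.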

Other observations

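Some of the 39 genes varied more among the MTAP-positive arrays than in the other groups. ATR read 8.30, 9.35 and 9.03 there (SD 0.54), against 9.17, 9.42 and 9.36 in MTAP-negative cells (SD 0.13). TOPBP1 read 8.96, 9.94 and 9.48 in MTAP-positive cells (SD 0.49), against 9.49, 9.59 and 9.82 in MTAP-negative cells (SD 0.17). The median SD of the 39 genes was 0.14 in inhibitor-treated, 0.19 in MTAP-positive and 0.14 in MTAP-negative cells, and over all genes it was 0.12, 0.17 and 0.14. The ACTB 5' minus 3' differences of MTAP-positive replicates 1 to 3 were -1.33, -1.03 and -1.92, and the part of RNA quality in this spread was not tested.

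The median deviation of the 39 genes from their means was negative on each inhibitor-treated array, from -0.28 to -0.14 (log2), and positive on each MTAP-negative array, from 0.16 to 0.29. On the MTAP-positive arrays it ran from -0.05 to 0.15. The 22 proliferation genes ran from -0.50 to -0.28 on inhibitor-treated, from 0.02 to 0.28 on MTAP-positive and from 0.19 to 0.26 on MTAP-negative arrays.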
